A study of Rattus norvegicus with 6 samples.

Results

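Receptors and ligands of the platelet-derived growth factor (PDGF) and fibroblast growth factor (FGF) families were examined in rat primary cortical cells that had been transfected with Math2 or with a control vector. The group comprised 7 genes: the receptor genes Pdgfra, Pdgfrb, Fgfr1, Fgfr2 and Fgfr3 and the ligand genes Pdgfa and Fgf2. Every probe set to which the platform annotation gave one of these symbols was taken, which made 15 probe sets of 31099 on the array and 7 genes of 14218 with a symbol of their own. A further 0 probe sets listed a member among several symbols. The group was chosen partly on the measured difference between the same arrays, since Pdgfrb and Fgfr3 had been noted for changes in opposite directions, so the differences of all 7 genes between the groups are given as a description and support nothing further.

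The samples were 3 control and 3 Math2 arrays, numbered 1 to 3 in each group. Math2, now called Neurod6, is a basic helix-loop-helix transcription factor of neurons. Each 10-cm dish had received 13.3 µg of the Math2 or the control vector. Cells of both groups also carried a surface tag, low-affinity nerve growth factor receptor cut short on its inner side, from 2.7 µg of vector, and transfected cells were separated through this tag after 24 h. The culture medium of both groups held 10% fetal calf serum, and total RNA was amplified from 50 ng in 2 cycles. Neither the animals' strain or age nor the separateness of the cultures was given in the labels, so the spread between arrays may be technical. The labels name brain as the source.

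PDGF and FGF receptors are single-pass tyrosine kinases that pair up on ligand binding and phosphorylate each other, after which adaptors pass the signal to Ras, phosphoinositide 3-kinase and phospholipase C. Pdgfa acts through the alpha receptor, whereas the beta receptor chiefly binds other PDGF chains. In the cortex Pdgfra is known as a marker of oligodendrocyte precursors, Pdgfrb of pericytes and other mural cells, and Fgfr3 of astrocytes and radial glia. Fgfr1 is expressed in neurons and glia, Fgfr2 mainly in glia, and Fgf2 is a mitogen of cortical progenitors.

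Values are MAS5 signals, a linear intensity per probe set. Each array's median signal lay between 102 and 120, and the table holds no detection calls, so signals near or under these medians are uncertain. Differences are Math2 minus control on the log2(signal + 7.42) scale, with 1 standard error (SE) from limma, and understate the change of dim probe sets. Probe sets with a mean of at least 6.07 on this scale were tested, and 7 of the 15 passed, 1 for each gene. The other 8 lay under the median of every array, with signals from 1.24 to 115. On technical measures, hybridization spike-ins had a geometric mean of 1893 to 2566 on the control arrays and 3875 to 6773 on the Math2 arrays, and the Gapdh 3' to 5' signal ratio ranged from 3.74 to 13.8 in the control and from 6.0 to 8.48 in the Math2 arrays. Their part in the results was not tested. The Neurod6 probe set had signals of 207 to 973 on the control and 167 to 1546 on the Math2 arrays. Array 3 was the highest in each group, and the log2 difference was 0.021 (SE 0.75). The transfected sequence is not given in the sources used here, so this checks nothing about the labels.

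Upstream sequences are shown for Fgfr3 and Fgfr2, the FGF receptor genes with the brightest probe sets of the group, because the transfected factor belongs to a class that binds the E-box, CANNTG. Of the 7 genes, 5 had an entry in the RefSeq promoter table of GRCr8 (Pdgfra, Pdgfa, Fgfr2, Fgfr3 and Fgf2). The sequence of Fgfr3 is chr14:81227216-81227459 and that of Fgfr2 is chr1:194280915-194281164, both on the minus strand, printed 5′ to 3′ up to the last base before the annotated gene, with E-box matches in capitals.
Fgfr3: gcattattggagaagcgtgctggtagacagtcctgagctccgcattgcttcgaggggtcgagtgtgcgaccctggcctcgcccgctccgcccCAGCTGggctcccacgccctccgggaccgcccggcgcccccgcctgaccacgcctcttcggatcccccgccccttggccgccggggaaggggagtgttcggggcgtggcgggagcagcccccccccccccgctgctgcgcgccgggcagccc
Fgfr2: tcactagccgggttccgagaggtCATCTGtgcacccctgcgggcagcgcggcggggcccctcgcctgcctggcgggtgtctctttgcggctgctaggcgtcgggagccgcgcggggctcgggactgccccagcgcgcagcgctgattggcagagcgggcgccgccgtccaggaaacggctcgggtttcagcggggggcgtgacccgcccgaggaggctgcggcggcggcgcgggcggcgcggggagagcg
Each stretch held 1 match, CAGCTG in Fgfr3 and CATCTG in Fgfr2. CANNTG is its own reverse complement, so 1 search covers both strands. Of the 5 members with an entry, 4 had 1 match each in the stretch up to the annotated gene, and Pdgfra, whose stretch was cut to 162 bases, had 0. In the first 250 bases of each table entry, which for Pdgfra and Fgfr3 reach into the annotated gene, each of the 5 had 1 match, and 65.5% of all 33469 entries had 1 or more. CAGCTG was present in 12% of them, and CAGATG or its reverse complement CATCTG, which overlap with CANNTG, in 14%. A match describes letters only.

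Pdgfrb, the PDGF beta receptor, was higher on every Math2 array by 1 of its 3 probe sets. Arrays are given in the order of their numbers, 1 to 3. Probe set 1379211_at read 62.9, 37.2 and 54.8 in the controls and 147, 159 and 293 with Math2. All control signals lay under the median of their array and all Math2 signals above it, and the groups did not overlap. The means were 51.7 ± 13.2 and 199.7 ± 81.1 (SD, n = 3), which is 1.77 higher on the log2 scale (SE 0.39) and 3.41-fold with the pseudocount. Between arrays of like number the difference was 1.14, 1.90 and 2.27. The control mean on the log2 scale was 5.86, under the filter limit, so this probe set was tested only because of its Math2 arrays.

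The remaining Pdgfrb probe sets did not share this pattern. Probe set 1370642_s_at measured 34.2, 34.1 and 99.9 on the control arrays and 39.9, 72.1 and 72.7 on the Math2 arrays. Its highest signal was that of control array 3, the groups overlapped, and the log2 difference was 0.23 (SE 0.53). Probe set 1391394_s_at measured 6.05, 11.2 and 8.26 on the control arrays and 5.04, 4.73 and 14.8 on the Math2 arrays, with a log2 difference of -0.073 (SE 0.42). It carries the same source accession in the platform annotation as 1379211_at, yet its signals lay near the bottom of the table on all 6 arrays. The suffix _s marks probe sets whose probes can match more than 1 transcript. The 3 probe sets of Pdgfrb thus disagreed, and 2 of them had no array above its median.

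**Figure D1:**
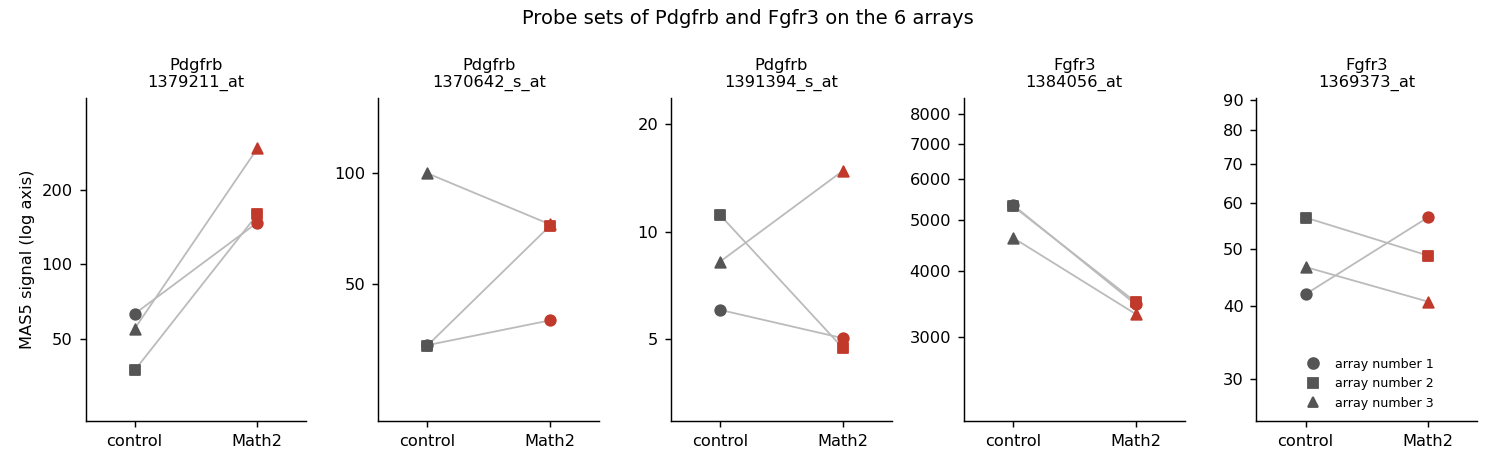
MAS5 signal (log axis, a separate range in each panel) of the 3 Pdgfrb and 2 Fgfr3 probe sets on the control and Math2 arrays, with 1 point per array and grey lines joining arrays of like number. The groups are apart for Pdgfrb 1379211_at (37.2 to 62.9 against 147 to 293) and Fgfr3 1384056_at (4637 to 5355 against 3315 to 3494) and overlap in the other panels.

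Pdgfra, the alpha receptor, had a single probe set, which was bright and variable. It read 1886, 652 and 1780 in the controls and 909, 641 and 1862 with Math2. Both arrays numbered 2 were low and both arrays numbered 3 were high, whereas the arrays numbered 1 differed. The log2 difference was -0.34 (SE 0.47), made almost wholly by number 1, where it was -1.05, against -0.023 and 0.065 for numbers 2 and 3. Without Math2 array 2 it was 0.0023, and with the replicate block and without pair 1 it was 0.021.

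Pdgfa, the ligand of the alpha receptor, measured 235, 402 and 455 on the control arrays and 294, 370 and 377 on the Math2 arrays. Array 1 was the lowest in each group, and the groups overlapped. The means were 364 ± 115 and 347 ± 46.1 (SD, n = 3), with a log2 difference of -0.021 (SE 0.32) that turned to 0.041 with quantile normalization.

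Fgfr3 was lower on every Math2 array by the brighter of its 2 probe sets. Probe set 1384056_at read 5355, 5328 and 4637 in the controls and 3459, 3494 and 3315 with Math2. The lowest control signal lay well above the highest Math2 signal. The means were 5107 ± 407 and 3423 ± 95.1 (SD, n = 3), which is -0.57 on the log2 scale (SE 0.19), or 1.49-fold lower. Arrays of like number differed by -0.63, -0.61 and -0.48, the narrowest span of any tested member. The log2 range was 0.21 within the control and 0.076 within the Math2 group. Its other probe set, 1369373_at, was dim, at 41.8, 56.6 and 46.6 on the control and 56.7, 48.7 and 40.6 on the Math2 arrays. That probe set had a log2 difference of 0.0072 (SE 0.43), which turned to -0.042 with quantile normalization. The lower signal of Fgfr3 thus rested on 1 bright probe set.

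Fgfr2 had 5 probe sets, of which 1 was bright. Probe set 1373829_at measured 3768, 3685 and 3232 on the control arrays and 3012, 2326 and 3362 on the Math2 arrays. Math2 arrays 1 and 2 lay under every control array, but Math2 array 3 lay above control array 3, so the groups overlapped. The means were 3562 ± 288 and 2900.3 ± 527 (SD, n = 3), with a log2 difference of -0.31 (SE 0.22). It was -0.16 without Math2 array 2 and -0.42 without Math2 array 3. The other 4 Fgfr2 probe sets, of which 3 carry the suffix _a for variants of 1 gene, had log2 differences of -0.20 to -0.78 with SEs of 0.48 to 0.71. In 1375129_at the control mean was made by array 1, at 43.4 against 8.50 and 5.24, and in 1371179_a_at by array 2, at 27.7 against 2.53 and 1.24.

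Of Fgfr1, Fgfr2 and Fgfr3, Fgfr1 had the most variable tested probe set. Probe set 1372447_at measured 347, 869 and 594 on the control arrays and 399, 997 and 280 on the Math2 arrays. Array 2 was the highest in each group, and the log2 difference was 0.20 between the arrays numbered 1, 0.20 between those numbered 2 and -1.07 between those numbered 3. Over all arrays it was -0.22 (SE 0.48), and it became 0.16 without Math2 array 3 and 0.085 without control array 2. The dim probe set 1387498_a_at had the same highest array in each group, at 98.3 and 115, and was at 8.45 and 7.92 on Math2 arrays 1 and 3. Its log2 difference was -1.17 (SE 0.80).

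Fgf2, the ligand, lay near the array medians. It measured 88.5, 73.2 and 98.5 on the control arrays and 123, 119.8 and 83.4 on the Math2 arrays. Math2 arrays 1 and 2 were above every control array and Math2 array 3 was not. The log2 difference was 0.29 (SE 0.35).

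**Figure D2:**
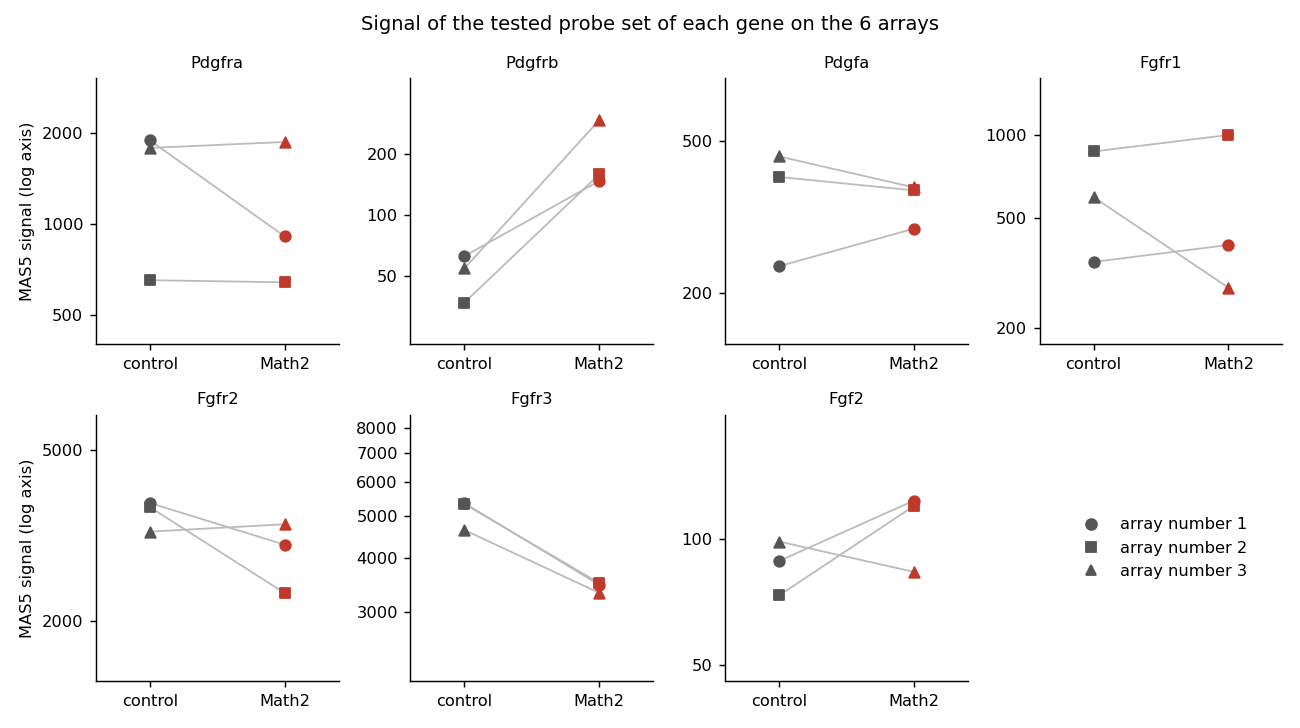
MAS5 signal (log axis, a separate range in each panel) of the tested probe set of each of the 7 genes, with 1 point per array, symbols for the array number and grey lines joining like numbers. Pdgfrb rises and Fgfr3 drops along all 3 lines, whereas the lines of the other genes run in both directions.

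**Figure D3:**
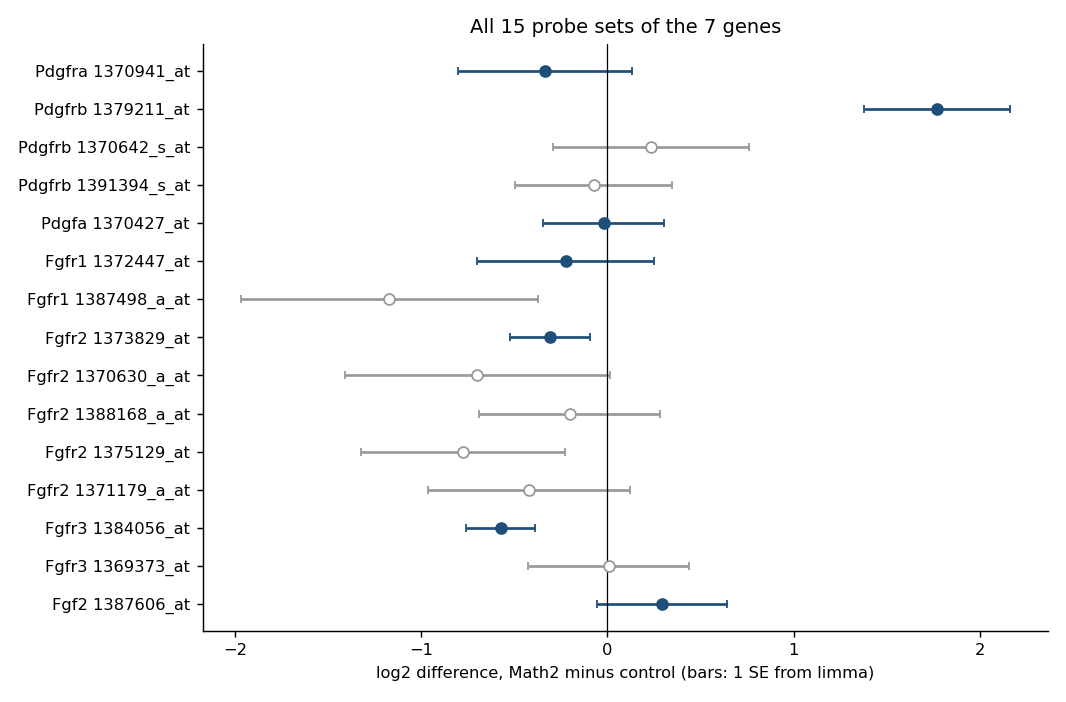
Log2 difference, Math2 minus control, for all 15 probe sets, with bars of 1 SE from limma, filled for the 7 tested and open for the 8 dim probe sets. Pdgfrb 1379211_at stands at 1.77 and Fgfr3 1384056_at at -0.57, and the dim probe sets have wide bars.

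Among the 7 tested probe sets, 2 were higher and 5 lower in the Math2 arrays (3 and 4 with quantile normalization). Of all 18625 tested, 45.7% were higher. The median log2 difference of the 7 was -0.22 against -0.031 over all 18625. That median was 0.076 without control array 2. Across these, limma with Benjamini-Hochberg adjustment at 0.05 called 0 of the 7, and the share called among all probe sets was 0%. With the array number as a block it again called 0 of the 7, against 0.0161% of all. At an unadjusted p under 0.05 there were 2 of 7 against 3.19% of all, and with the block 2 of 7 against 7.70%. The groups did not overlap for 2 of the 7, Pdgfrb and Fgfr3, and for 8.00% of all tested probe sets (3.70% higher and 4.30% lower). Between like numbers 1 of the 7 was higher in 3 of 3 pairs and 1 lower, against 13.1% and 15.2% of all. Since this contrast had brought Pdgfrb and Fgfr3 to notice, nothing is read from these shares.

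Cells of several kinds could contribute these transcripts, and fewer cells of a type cannot be told apart from less RNA per cell in such bulk samples. Of 14 pericyte and smooth muscle markers, 11 were tested, with 8 higher and 3 lower in the Math2 arrays. Their summed signal was 7518 to 11782 in the control and 8727 to 10486 in the Math2 arrays, of which Tagln, a smooth muscle gene, made up 75.6%. None of the 11 was without overlap between the groups, and the log2 differences ran from -0.76 for Mcam, an adhesion molecule gene with lower values in 3 of 3 pairs, to 0.52 for Rgs5, a pericyte gene with higher values in 3 of 3 pairs. Kcnj8, Abcc9, Anpep and Vtn lay under the median of every array. Of 15 astrocyte and radial glia markers, 13 were tested, with 7 higher and 6 lower, or 4 and 9 with quantile normalization. Their summed signal was 71729 to 78767 in the control and 70000 to 103635 in the Math2 arrays, with Math2 array 3 the lowest of all 6, and Fabp7 made up 24.8% of it. The groups did not overlap for Vim, an intermediate filament gene (log2 difference 0.51, SE 0.19), and Hes5, a Notch target gene (0.75, SE 0.39), both higher with Math2. Hes5 had a control mean of 5.71 on the log2 scale, under the filter limit, so it was tested only because of its Math2 arrays. The water channel gene Aqp4, at -0.49, had the lowest log2 difference of the list, and Gfap, of another intermediate filament, had 0.069. Slc1a2 and Hes5 lay under every array median.

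Of 9 oligodendrocyte precursor markers, 5 were tested, with 1 higher and 4 lower and a summed signal of 13376 to 18805 in the control and 14261 to 17246 in the Math2 arrays. Olig1 made up 44.9% of this summed signal and had its highest signal, 9061, on Math2 array 2. The sum was lowest on control array 2, and on Math2 array 2 it was 15799, above that of Math2 array 1. Pdgfra was near equal on these arrays numbered 2, at 652 and 641. Of the 5 tested markers only Ptprz1 was lowest on array 2 in each group, as Pdgfra was. The groups did not overlap for Lhfpl3, which was lower with Math2 (log2 difference -0.69, SE 0.24). Sox10 fell just under the filter limit, at a mean of 6.05, and was not tested. It measured 158, 53.2 and 176 on the control and 13.4, 7.53 and 143 on the Math2 arrays, with a log2 difference of -1.76 (SE 0.83). Olig2 (0.92) and Pcdh15 (-0.70) lay under every array median and were not tested. Of 13 neuron markers, 11 were tested, with 8 higher and 3 lower. Their log2 differences ran from -0.48 for Syp to 1.18 for Rbfox3 (SE 0.57), and the groups overlapped for both genes. The summed signal, of which Gap43 made up 38.0%, was 22356, 16260 and 29503 in the controls and 19297, 16842 and 37101 with Math2. Both arrays numbered 2 were lowest and both numbered 3 highest, an order in which Pdgfra was also lowest on the arrays numbered 2 and Fgfr1 highest on them. Fibroblast and meningeal markers had lower values for 11 of 11 tested, also with quantile normalization and median centring, with a summed signal of 9075 to 10712 in the control and 7202 to 9231 in the Math2 arrays. The groups did not overlap for Col1a1 (-0.25), Fbn1 (-0.46) and Aldh1a2 (-0.98), where 8.00% of all tested probe sets had no overlap. Aldh1a2 had a Math2 mean of 5.72 on the log2 scale, under the filter limit, against 6.7 in the control. It was therefore tested only because of its control arrays. Dcn (0.14), Slc6a13 (1.09), Foxc1 (-0.26) and Foxc2 (0.33) lay under every median and were not tested. Lum (0.40) was not tested either, so most untested markers of this list had higher values. Of 10 endothelial markers 3 were tested, all with lower values, at a sum of 463 to 1125 and 320 to 827. Tek was without overlap (-0.40), and Pecam1, Tek, Tie1, Kdr, Cldn5, Vwf and Emcn lay under every median. Tek, too, was tested only because of its control arrays, at a log2 mean of 6.35 against 5.95 with Math2. All 10 microglia and macrophage markers did so, and 0 were tested. The part of these cell types in the results was not tested.

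The rest of the pathway was followed in 7 lists of 111 genes, of which 95 were on the array and 66 tested, each gene by its probe set of highest mean signal. In limma 0 of the 66 passed at an adjusted p of 0.05, with or without the block. Under an unadjusted 0.05 lay 2, against 3.19% of all tested probe sets, and 4 with the block, against 7.70%. Higher values were seen for 27 and lower values for 39, where 45.7% of all tested probe sets were higher. The groups did not overlap for 5, or 7.58%, close to the 8.00% of all tested probe sets.

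Extracellular ligands were mostly dim. Of 17 other FGF ligands, all on the array, 2 were tested, Fgf9 and Fgf16, and 16, Fgf16 among them, lay under the median of every array. Fgf9, a glia-activating ligand, measured 109 ± 16.0 in the control and 119.7 ± 22.9 in the Math2 arrays (SD, n = 3), with a log2 difference of 0.12 (SE 0.34). Fgf16 had one of 0.41 (SE 0.38) from signals of 40.9 to 95.3. Its control mean of 6.04 on the log2 scale lay under the filter limit, so it was tested only because of its Math2 arrays. Of the PDGF and VEGF family, Pdgfc and Pdgfd lay under every median, and 5 of 8 members were tested with a median of -0.12. Vegfc, a growth factor of lymphatic vessels, was higher between all 3 pairs of like number (log2 difference 0.35, SE 0.24), while Vegfb and the angiogenic factor Vegfa had -0.12 each. The median of this list was 0.072 when probe sets of a gene were averaged and 0.041 without a filter. Of the intracellular FGF homologous factors, which bind sodium channels and not receptors, Fgf13 had a log2 difference of -0.063 and Fgf12 of 0.061, and Math2 array 3 was the highest for both.

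Of 10 other FGF receptors and co-receptors, 8 were on the array and 5 tested, with 1 higher and 4 lower and a median of -0.064. With quantile normalization 3 were higher and 2 lower, at a median of 0.0059. Fgfbp3, a secreted FGF-binding protein, measured 2561 ± 390.2 and 2385 ± 410.4 (SD, n = 3), with a log2 difference of -0.10. Fgfrl1, a receptor without a kinase domain, measured 197, 1147 and 1404 on the control arrays and 512, 739.8 and 362 on the Math2 arrays, with a log2 difference of -0.41 (SE 0.62). Its control arrays thus differed more from each other than the groups did. The transmembrane protein genes Flrt3 and Flrt1 had log2 differences of -0.064 and 0.86 (SE 0.56), the latter from a control mean of 92.0. Fgfr4, Kl and Fgfbp1 lay under every array median.

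Adaptors and signal relay genes were tested for 25 of 37, with 7 higher and 18 lower and a median of -0.11. The phosphatase gene Ptpn11, a positive relay of these receptors, had signals of 4901 ± 877 and 4533 ± 525 (SD, n = 3) and a log2 difference of -0.10. Nras, a Ras GTPase gene, had -0.23, the docking protein gene Gab1 -0.12 and the kinase gene Map2k2 0.47 (SE 0.29). Shc1, an adaptor gene, measured 2082, 1309 and 1462 on the control arrays and 1299.9, 1219 and 1179.95 on the Math2 arrays. These groups did not overlap, by a gap small against the spread of the controls, and the log2 difference was -0.36 (SE 0.25). It did not pass in limma (adjusted p = 1.00, or 0.726 with the block). Crkl, likewise an adaptor gene, was also without overlap, with a log2 difference of -0.39 (SE 0.28).

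Feedback inhibitors, which FGF and ERK signalling induces and which restrain it, were tested for 10 of 15, with 2 higher and 8 lower and a median of -0.23. Spry2 measured 4836 ± 777 and 4480.4 ± 314 (SD, n = 3), with a log2 difference of -0.10. Spry4, of the same Sprouty family, measured 2385, 2010.2 and 1672 on the control arrays and 1372, 2117 and 954 on the Math2 arrays, with a log2 difference of -0.51 (SE 0.31). Spry4 did not pass in limma (adjusted p = 1.00, or 0.621 with the block). The ERK phosphatase gene Dusp6 had 0.22 and Errfi1, an inhibitor of EGF receptors, -0.37. No member passed, and the median was -0.097 with the filter at the 60th percentile.

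Transcriptional targets were tested for 17 of 20, with 12 higher and 5 lower and a median of 0.11. It turned to -0.061 when Math2 array 2 was left out and to -0.068 when control array 1 was. The immediate early gene Egr1 measured 2628, 2219.9 and 1504 on the control arrays and 3013, 3313 and 2862 on the Math2 arrays, without overlap, and differed by 0.57 on the log2 scale (SE 0.25). Ier2, likewise an immediate early gene, differed by 0.55 (SE 0.25), also without overlap. In limma their adjusted p was 1.00 each, and 0.502 and 0.528 with the block. Srf, a transcription factor gene, was without overlap in the other direction, with lower values in 3 of 3 pairs and a log2 difference of -0.42 (SE 0.23). Etv1, an ETS factor induced by FGF signalling, had signals of 5613 ± 713 and 7030 ± 849 (SD, n = 3), 0.32 higher on the log2 scale. The matrix gene Ccn2 had 0.23 and the cyclin gene Ccnd1 -0.25, each with values in both directions among the 3 pairs.

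**Figure D4:**
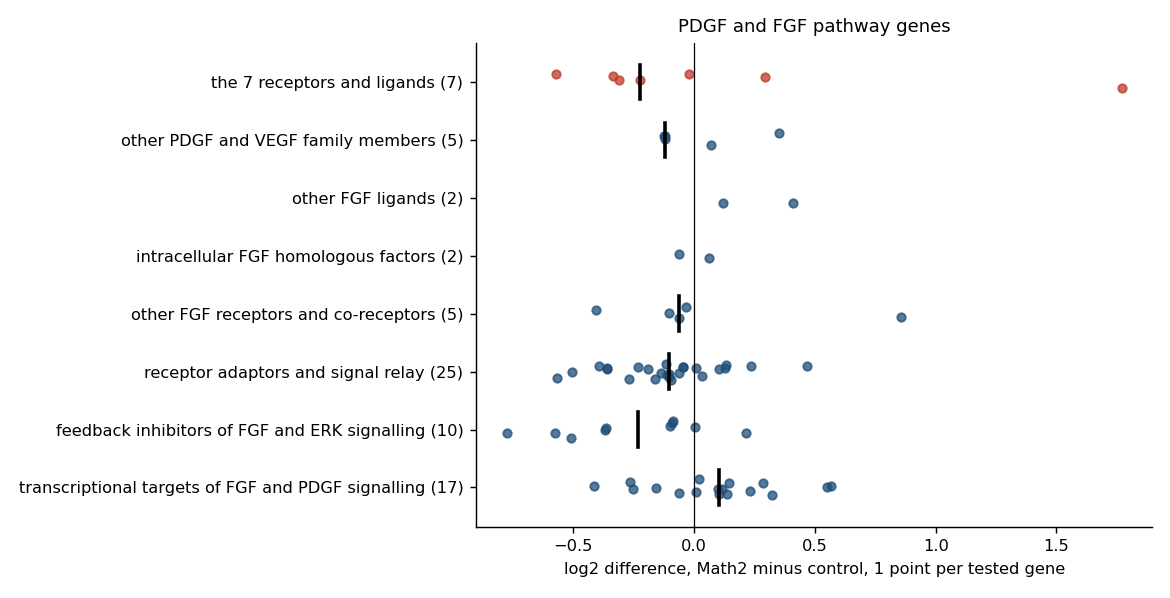
Log2 difference, Math2 minus control, of each tested gene in the 7 pathway lists and among the 7 receptors and ligands (red), with black bars at the medians of lists with over 2 tested genes and numbers tested in brackets. Medians lie between -0.23 and 0.11, and Pdgfrb at 1.77 is the point farthest from 0.

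The genes whose pattern over the 6 arrays came nearest to those of Pdgfrb and Fgfr3 were taken by the root mean square distance between centred log2 values, among 13752 probe sets with a single symbol. The probe set nearest to Pdgfrb 1379211_at was one of Plppr4, the gene of the series title under its older name Prg1, at a distance of 0.21 against a median of 1.03. Plppr4 encodes a neuronal membrane protein related to lipid phosphatases. Its adjusted p in limma was 0.562, and 0.0151 with the block, where it was 1 of the 3 probe sets called. The next were Lzts1, Tmem178a, Nptx1 and Clmp, at 0.40 to 0.47. Nearest to Fgfr3 1384056_at were Wrnip1, a protein that interacts with a DNA helicase, at 0.061, the adhesion receptor gene Adgrl2 at 0.085, and Adck2, Ddi2 and Hus1 at 0.095 to 0.097, against a median of 0.44. All 10 are without overlap between the groups in the direction of the gene they resemble. The members' contrast between the groups enters this distance, and the arrays are only 6, so the list is a description.

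**Figure D5:**
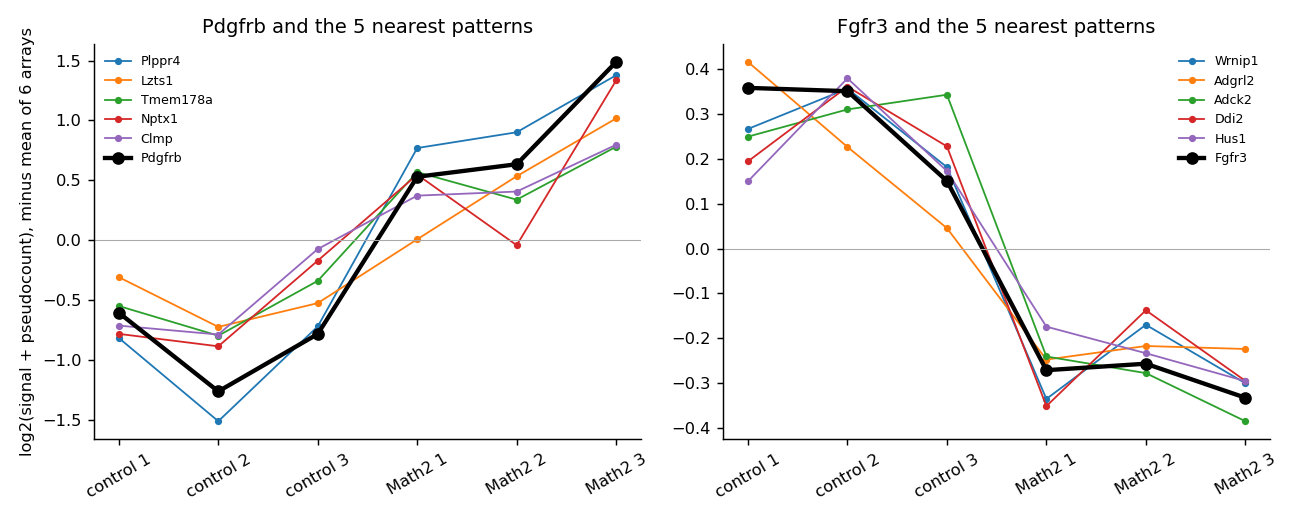
Log2(signal + pseudocount) on each of the 6 arrays, minus the mean over the arrays, for Pdgfrb and Fgfr3 (thick black lines) and the 5 probe sets with the nearest pattern to each. Lines only join the arrays of a gene, and Plppr4 follows Pdgfrb within 0.21 and Wrnip1 follows Fgfr3 within 0.061 (root mean square).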

How the data were processed

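Expression was measured on Affymetrix Rat Genome 230 2.0 arrays, 1 per sample. The deposited table holds 1 linear signal intensity per probe set, made with MAS5 per the submitters' processing notes, which give no version or settings here. The mean after trimming 2% at each end was 500.2 on all 6 arrays, so no further scaling was applied. Symbols came from the platform annotation. From these values log2(signal + 7.42) was computed, with the 10th percentile of all positive values as pseudocount. After 57 control probe sets were set aside, probe sets at or above the 40th percentile of mean log2 value (6.07) were tested, 18625 in all. limma 3.58.1 in R 4.3.3 (lmFit, eBayes with an intensity trend) compared the groups, two-sided, with Benjamini-Hochberg adjustment, and was tested on simulated data. SEs of untested probe sets came from a fit without the filter.

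Across probe sets, arrays of like number deviated together from their groups (correlations of 0.326, 0.476 and 0.372, each over 0.1). Arrays of unlike number had correlations of -0.460 to 0.104. The highest of these, for control array 1 with Math2 array 3, was also over 0.1. The numbers were taken as pairing the arrays, on the basis of these data only. The block is an alternative fit. Members, lists and the naming rule were chosen with earlier results of these data known. Named from each list were the 3 genes of highest mean signal, the 2 of smallest p and any that passed. Some other listed genes are named for groups without overlap, for the highest or lowest value of their list or for being dim or untested. Not every gene of these kinds is named, and those named were chosen after their values were seen. Alternatives were other pseudocounts (1 and 32), filters, normalizations, the block, no trend, averaged probe sets and arrays left out. Precision is limited by having 3 arrays a group.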

Additional observations from a re-analysis of the deposited data

How the results depend on the processing

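Over all alternatives run, Pdgfrb 1379211_at stayed higher (log2 difference 1.43 to 2.08) and Fgfr3 1384056_at stayed lower (-0.64 to -0.54), and limma called neither in any (smallest adjusted p 0.0526 and 0.231, largest 1.00). Pdgfrb and Fgfr3 had been noted for this contrast and the groups did not overlap for these probe sets. Leaving out arrays or pairs therefore could not change their signs. Pdgfrb had no value with the filter at the 60th percentile (7.69), which it did not pass. Fgfr2 1373829_at stayed lower (-0.49 to -0.13) and Fgf2 higher (0.11 to 0.55), while Pdgfra, Pdgfa and Fgfr1 changed sign in 2, 7 and 3 of 18 alternatives. Counts over all probe sets were 0 higher and 0 lower, 3 and 0 with the replicate block, and 4 and 1 with the replicate block and quantile normalization. Leaving out arrays or pairs gave 0 to 51 higher and 0 to 63 lower, the most with the block and without pair 2, against 15 and 0 without pair 3 and 4 and 0 without pair 1. The members' median ranged from -0.27 to 0.10 with arrays or pairs left out, and was 0.076 without control array 2. The PDGF and VEGF family ranged from -0.089 to 0.049 in those settings (0.026 without control array 1, and -0.018 and -0.0024 with the block without pairs 2 and 3), and was 0.072 with averaged probe sets and 0.041 without a filter. Likewise the ranges were -0.16 to 0.14 for FGF receptors and co-receptors, -0.24 to -0.062 for adaptors, -0.38 to -0.15 for feedback inhibitors (-0.097 with the stricter filter) and -0.068 to 0.22 for transcriptional targets. The cause of these shifts was not tested. The block changed the call of no member and of no gene in the pathway or marker lists, and it did that of Plppr4 (adjusted p 0.562, and 0.0151 with the block). Signals near the array medians limit Pdgfrb, Fgf2 and the 8 dim probe sets, whose background is unknown.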
